A study of Mus musculus with 12 samples.

Results

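Immediate early response genes are transcribed within minutes of a stimulus, without prior protein synthesis, when kinases activated by growth factors, serum, calcium or cAMP act on transcription factors already bound at their promoters. Their mRNAs are short-lived, so that their level follows recent signalling in the cells. In β cells, glucose and the calcium entry that triggers insulin secretion are known to induce several of them. The group followed here was set by name, as all probe sets whose platform symbol is exactly one of the names, and holds 10 of the 15964 genes on the chips. Fos, Fosb, Jun and Junb encode subunits of the AP-1 transcription factor, Egr1 a zinc finger transcription factor, Atf3 a stress-induced factor of the ATF/CREB family, Nr4a1 an orphan nuclear receptor and Ier2 a small nuclear protein. Dusp1 encodes a nuclear phosphatase that inactivates MAP kinases, and Btg2 an antiproliferative protein of the BTG/TOB family. All 10 genes had a probe set, 18 in all among the 36701 probe sets that are not controls, of which chip A held 15, chip B 1 and chip C 2.

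MIN6 is a β-cell line from an insulinoma of mice that carry the SV40 T antigen in their β cells, and clone 4 is a single subclone of it, obtained by limiting dilution. RNA came from 4 populations. Pr-LP and Pr-HP were parental cells of passages 17 to 20 and 35 to 40, and C4-LP and C4-HP were clone 4 cells of passages 17 to 20 and 40 to 50, all grown in 25 mM glucose and 13% fetal bovine serum. Pr-LP, C4-LP and C4-HP, which secrete insulin in response to glucose, are called responder cells, and Pr-HP cells do not respond. The time between the last change of medium and the extraction of RNA was not found in the study's methods or labels.

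Each population was hybridised once to each chip (A, B and C) of an Affymetrix MG-U74v2 set, which makes 12 arrays without replicates, and a ratio of 2 populations is a ratio of 2 arrays. Array medians of a chip differed little, with 214 to 216 units on chip A. The mouse control probe sets present on all 3 chips, 20 of them at 100 units or more, were taken to measure the same RNA again. The labels do not state that the chips of a population shared an RNA preparation. These probe sets include several of the same transcript, as for Gapdh and Actb. The SD over the chips of their log2 ratio between populations had a median of 0.079 and reached 0.20. If the RNA was shared, this covers the hybridisation of abundant RNAs alone and not the cultures. The 7 β-cell markers with a probe set (of 12 listed), Ins2, Iapp and Pdx1 among them, exceeded the 40th percentile of their chip in every population. Of 6 macrophage and blood cell markers only Cd68 did so, with probe set 103016_s_at. It had 1785 in Pr-HP and 177 to 210 in the other populations. The other Cd68 probe set, 162173_i_at, lay between 34.7 and 40.6 units and did not show this rise. The summed intensity of all 6 was 2117 in Pr-HP and 529 to 531 elsewhere, with most of the Pr-HP sum from 103016_s_at. Of 7 fibroblast markers 5 did so in every population, with a summed intensity between 2946 and 3170, and so did 2 of 4 endothelial markers. Of 4 duct and acinar cell markers with a probe set, 4 exceeded it in Pr-LP, 2 in Pr-HP and 3 in each clone 4 population. Exceeding this percentile thus does not tell these cell types apart. Among the 4 populations Pr-HP had the lowest ratio of 3′ to 5′ Gapdh control probe sets on all 3 chips (0.867 on chip A against 0.968 to 1.05 in the other populations). The part of these differences in the results on Pr-HP was not tested.

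Promoter sequences for 8 of the 10 genes were taken from RefSeq (build GRCm38.p6, from 250 bases before to 50 bases after the annotated start). Those of Ier2 and Egr1 are not shown. The sequences of Fos and Dusp1 are shown since both genes varied between the populations, and that of Btg2 since it holds the same element as Dusp1 and differed at most 1.19-fold. Each is written 5′ to 3′ on the strand of the gene. Capitals mark the cAMP response element TGACGTCA, its shorter core TGACG on either strand, and in Fos the TATA box TATAAA. The Fos window is chr12:85473640-85473939 on the plus strand, that of Dusp1 chr17:26508423-26508722 on the minus strand and that of Btg2 chr1:134079106-134079405 on the minus strand.

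Fos: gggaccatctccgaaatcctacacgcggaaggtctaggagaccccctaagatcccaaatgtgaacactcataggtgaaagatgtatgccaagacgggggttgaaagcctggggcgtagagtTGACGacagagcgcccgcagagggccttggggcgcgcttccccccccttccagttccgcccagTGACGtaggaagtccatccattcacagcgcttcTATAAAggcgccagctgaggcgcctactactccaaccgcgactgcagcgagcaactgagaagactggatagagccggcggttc

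Dusp1: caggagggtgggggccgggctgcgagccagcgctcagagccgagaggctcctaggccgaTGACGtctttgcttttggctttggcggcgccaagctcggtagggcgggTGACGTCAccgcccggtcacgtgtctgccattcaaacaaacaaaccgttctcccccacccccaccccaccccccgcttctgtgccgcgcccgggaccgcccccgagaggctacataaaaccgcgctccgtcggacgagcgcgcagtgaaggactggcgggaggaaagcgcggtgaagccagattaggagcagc

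Btg2: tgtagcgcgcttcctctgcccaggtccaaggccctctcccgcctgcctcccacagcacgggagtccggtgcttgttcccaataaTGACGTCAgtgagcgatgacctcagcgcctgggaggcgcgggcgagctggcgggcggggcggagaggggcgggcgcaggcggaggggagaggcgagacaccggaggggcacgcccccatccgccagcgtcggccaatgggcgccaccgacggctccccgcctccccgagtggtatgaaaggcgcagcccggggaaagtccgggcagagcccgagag

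The core began 129 and 66 bases before the start of Fos, and the TATA box 33 bases before it. The full palindromic element, which contains the core on both strands, began 143 bases before the start of Dusp1 and 166 bases before that of Btg2. Among the 8 members searched on both strands, 7 held the core (all but Jun) and 2 the full element, against 20.8% and 1.79% of the 32851 promoters of that table. No CArG box, the element bound by serum response factor, and no AP-1 site (TGANTCA) lay in these 8 windows, while 1.63% and 7.81% of all promoters held one. Sites further than 250 bases before the start, and the promoters of Ier2 and Egr1, were not searched, so elements there would be missed. These matches describe the letters of the windows and not binding in these cells.

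Fos varied most among the members. With probe set 160901_at its intensity was 85.2 in Pr-LP, 248 in Pr-HP, 349 in C4-LP and 121 in C4-HP. C4-LP and Pr-HP were thus high, and Pr-LP and C4-HP low, so that neither the 2 parental nor the 2 clone 4 populations went together. Fos was 4.09-fold higher in C4-LP than in Pr-LP and 2.91-fold higher in Pr-HP than in Pr-LP. Between the clone 4 populations the order was the other way round, with 2.88-fold more in C4-LP than in C4-HP. The ratio of the highest to the lowest population exceeded that of Fos in 0.934% of the 23340 tested probe sets, those above the 40th percentile of their chip on at least 1 array. Both low values lay under that percentile (153 units on chip A) and above the floor of 67.3 units, the 20th percentile, to which lower values were raised. With the floor set at the 40th percentile, where Fos was no longer past 2-fold between Pr-HP and Pr-LP, the log2 ratio of Pr-HP to Pr-LP dropped from 1.54 to 0.70, that of C4-LP to Pr-LP from 2.03 to 1.19 and that of C4-HP to C4-LP went from -1.52 to -1.19. The other Fos probe set, 161716_at, lay between 60.0 and 72.7 units in all populations and was not tested.

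**Figure D1:**
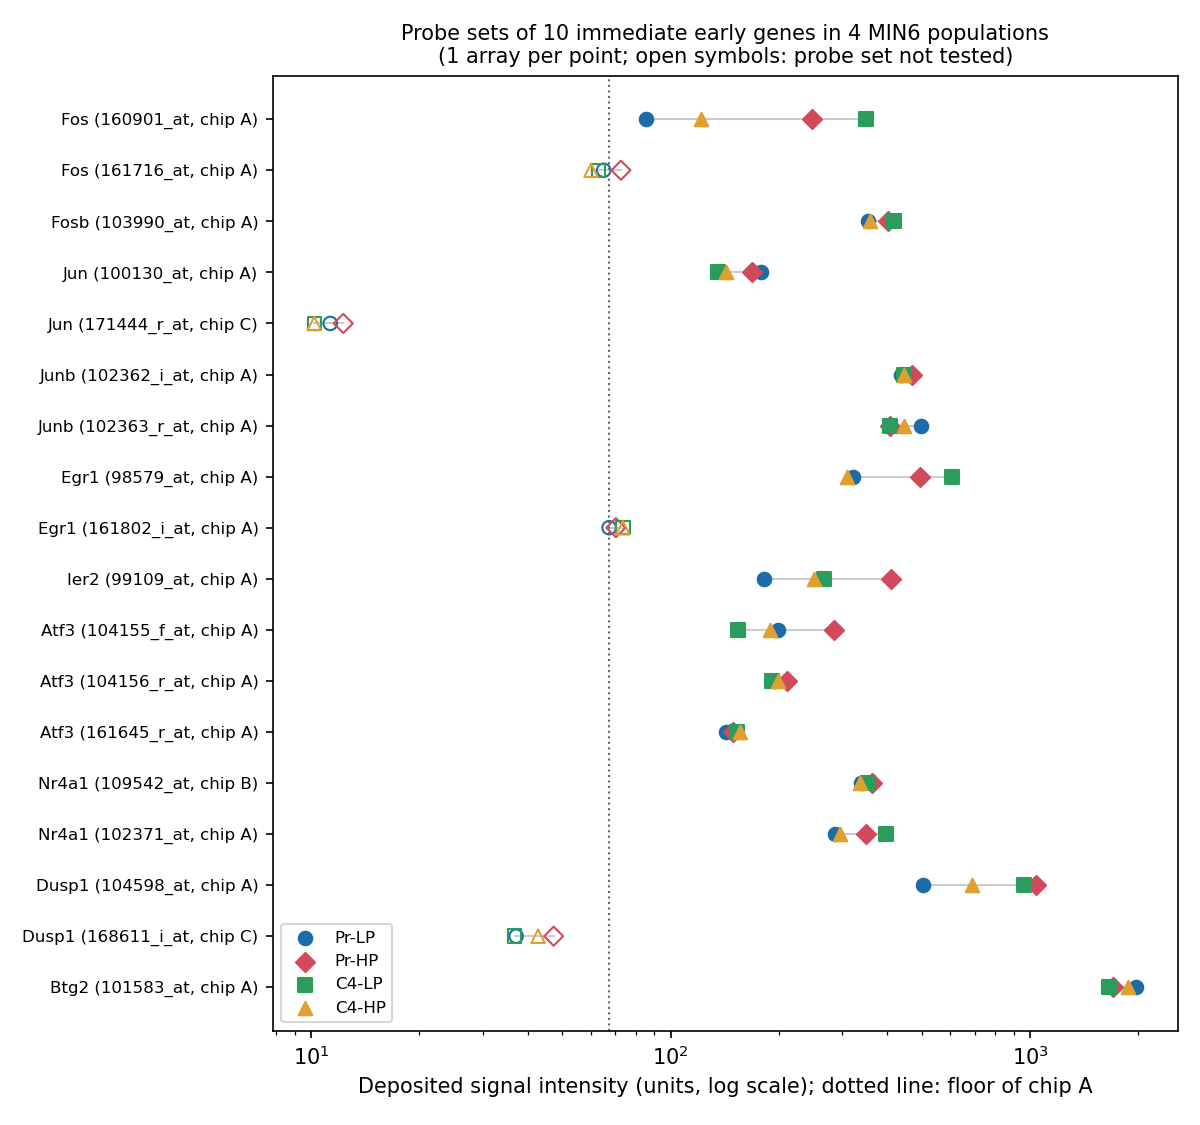
Deposited signal intensity (log scale) of the 18 probe sets of the 10 genes, with 1 symbol for each population and array; open symbols are probe sets that were not tested, the grey line joins the lowest and highest value, and the dotted line is the floor of chip A. Fos (160901_at), Egr1 (98579_at), Ier2 and Dusp1 (104598_at) were spread over the populations, and the other tested probe sets were less so.

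Dusp1 had an intensity of 503 in Pr-LP, 1036 in Pr-HP, 958 in C4-LP and 688 in C4-HP with probe set 104598_at. Pr-HP and C4-LP were again the high populations. Dusp1 was 2.06-fold higher in Pr-HP than in Pr-LP, 1.91-fold higher in C4-LP than in Pr-LP and 1.39-fold higher in C4-LP than in C4-HP. The other Dusp1 probe set, on chip C, lay between 36.8 and 47.2 units and was not tested.

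Egr1 had 322 in Pr-LP, 494 in Pr-HP, 604 in C4-LP and 309 in C4-HP with probe set 98579_at. Its 2 high and 2 low populations were those of Fos. C4-LP had 1.88-fold more Egr1 than Pr-LP and 1.96-fold more than C4-HP, and Pr-HP had 1.53-fold more than Pr-LP. The other Egr1 probe set, 161802_i_at, stayed between 67.4 and 73.8 units and was not tested.

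Ier2 had 182 in Pr-LP, 409.7 in Pr-HP, 267 in C4-LP and 250.1 in C4-HP with its single probe set. It was highest in Pr-HP and differed little between the clone 4 populations. It was 2.25-fold higher in Pr-HP than in Pr-LP, 1.64-fold higher in Pr-HP than in C4-HP and 1.07-fold higher in C4-LP than in C4-HP. Atf3, with probe set 104155_f_at, was also highest in Pr-HP, with 199 in Pr-LP, 285 in Pr-HP, 154 in C4-LP and 188 in C4-HP. There C4-LP was the lowest population, unlike in Fos. The 2 other Atf3 probe sets differed less between the populations. With 104156_r_at Pr-HP was again highest and C4-LP lowest, but all values lay between 192 and 211 units. With 161645_r_at, at 142 to 155 units, C4-HP was highest.

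The other AP-1 subunits and Nr4a1 and Btg2 differed little between the populations. Fosb, the closest relative of Fos in the list, had 353 in Pr-LP, 401 in Pr-HP, 418 in C4-LP and 359 in C4-HP, at most 1.18-fold apart. Jun had 179, 168, 135 and 143 in the same order and was 1.32-fold higher in Pr-LP than in C4-LP, and its second probe set was under the floor of its chip on all 4 arrays. Junb lay between 437 and 469.8 units with 102362_i_at and between 407 and 497 with 102363_r_at, and the latter was highest in Pr-LP and the former in Pr-HP, so that averaging both turned the sign of all 4 log2 ratios, none of them near 2-fold. Nr4a1 was at 338 in Pr-LP, 363 in Pr-HP, 354 in C4-LP and 336 in C4-HP with 109542_at of chip B. With 102371_at of chip A it was at 286, 349.7, 397 and 295, which is 1.39-fold more in C4-LP than in Pr-LP. Btg2 had 1974 in Pr-LP, 1699 in Pr-HP, 1655 in C4-LP and 1869.8 in C4-HP. Intensities of different probe sets cannot be compared as levels of RNA.

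Of the 18 probe sets, 14 were tested and 4 were not, and each of the 10 genes had at least 1 tested probe set. Of the 14, 3 (Fos, Dusp1 and Ier2) were 2-fold or more higher in Pr-HP than in Pr-LP with at least 100 units on the higher side, and 0 in Pr-LP, against 1.74% and 1.37% of all tested probe sets. With the floor at the 40th percentile 2 of the 14 were. Between the clone 4 populations 1 of 14, that of Fos, was 2-fold or more higher in C4-LP and 0 in C4-HP, against 0.891% and 0.39% of all. Between the low passage populations 1 of 14, again that of Fos, was higher in C4-LP and 0 in Pr-LP, against 1.66% and 0.938%. Between the high passage populations 1 of 14, that of Fos, was higher in Pr-HP and 0 in C4-HP, against 1.44% and 1.05%, and this last one was not past 2-fold with the floor at the 40th percentile. The comparisons share arrays, since each population enters 2 of them, and they have no replicate check. Ratios of the highest to the lowest population under 1.5 were found in 9 of 14 members and in 81.4% of all tested probe sets.

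Over the brightest probe set of each gene, the median log2 ratio was 0.35 for Pr-HP over Pr-LP, -0.08 for C4-HP over C4-LP, 0.16 for C4-LP over Pr-LP and -0.41 for C4-HP over Pr-HP. Over all tested probe sets these medians lay between -0.003 and 0.004.

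**Figure D2:**
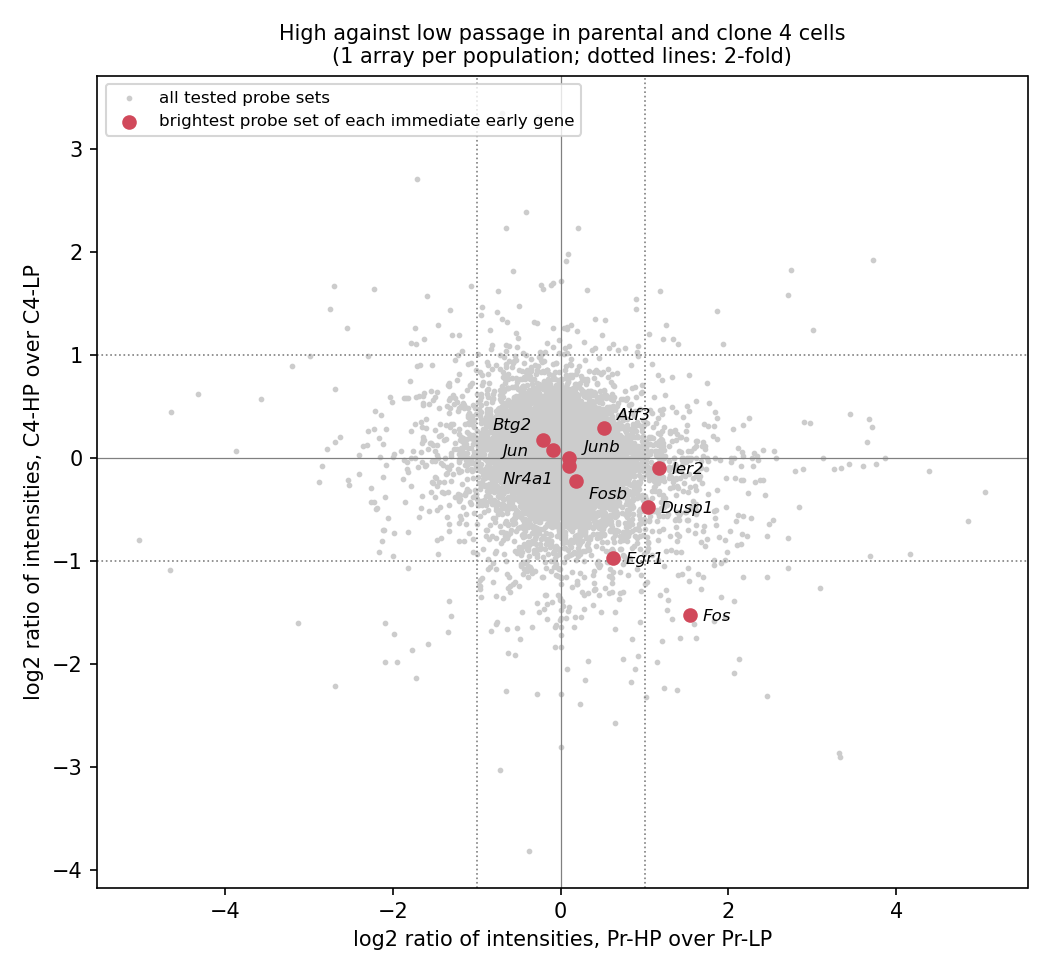
Log2 ratio of intensities of Pr-HP over Pr-LP (x axis) and of C4-HP over C4-LP (y axis), with all tested probe sets in grey and the brightest probe set of each of the 10 genes in red; dotted lines mark 2-fold and each population is 1 array. Fos lies at 1.54 and -1.52, past 2-fold on both axes, Ier2 and Dusp1 pass 2-fold on the x axis alone, and Btg2, Jun, Junb, Nr4a1 and Fosb lie near the origin.

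The passage ratios of parental and clone 4 cells share no array and could be set side by side. Fos was higher at high passage in the parental cells and lower at high passage in clone 4, a difference of 3.06 between the 2 log2 ratios, which placed it 43rd from the top among the 23340 tested probe sets. The difference was 1.59 for Egr1, 1.52 for Dusp1 and 1.26 for Ier2, at places 294, 330 and 484. It was 0.40 for Fosb, 0.23 for Atf3, 0.18 for Nr4a1 and 0.11 for Junb, and -0.17 for Jun and -0.39 for Btg2. With their other tested probe sets it was 0.72 for Nr4a1, -0.42 for Junb, and 0.08 and 0.04 for Atf3. The SD of this difference over all tested probe sets was 0.53. A change of 2-fold or more in opposite directions, a rule chosen after the values were seen, was met by 1 of the 14 member probe sets (Fos) and by 0.236% of all tested. By another such rule, Pr-HP and C4-LP both lay above Pr-LP and C4-HP in 8 of the 14 member probe sets, in 7 genes, against 16.3% of all tested. In some of the 8 the gap was slight, as in Junb with 447 against 446. When the lower of Pr-HP and C4-LP had to be at least 25% above the higher of Pr-LP and C4-HP, 3 of 14 met the rule (Fos, Dusp1 and Egr1), against 1.32% of all tested.

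The next comparison, which the study also made, set the responder cells against Pr-HP. Ier2 averaged 233 ± 44.9 (SD, n = 3 populations) over the responder cells, against 409.7 for Pr-HP, with every responder population lower. Its difference in limma was -0.83 on the log2 scale (SE 0.26, adjusted p = 0.467). Atf3 with 104155_f_at had 180.4 ± 23.5 (SD, n = 3 populations) against 285, and a difference of -0.67 (SE 0.19, adjusted p = 0.427). Dusp1 had 716 ± 229 against 1036 and Fos 185 ± 143 against 248, with adjusted p of 0.712 and 0.851 from limma, and in Fos the range of the responder cells included the Pr-HP value. Of the 14 member probe sets 0 were called at an adjusted p under 0.05, with 2 at an unadjusted p under 0.05, and 0.0814% (19) of all tested probe sets were called. With 2 residual degrees of freedom, this fit takes the single Pr-HP array to vary like the 3 responder populations.

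In an additive limma fit of cell population and passage class, 0 of the 14 members were called between clone 4 and parental cells (1 at an unadjusted p under 0.05) and 0 between high and low passage (0 at an unadjusted p under 0.05). The background was 0% in both, since no tested probe set was called, with 1054 and 839 of them at an unadjusted p under 0.05. This fit has 1 residual degree of freedom, the departure from additivity, and its misses do not show that the populations were alike.

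Genes of the same pathway were taken from lists, with the brightest probe set of each gene. The lists were chosen with earlier results of these data known, so that their counts are descriptions and not independent support. Of 15 genes that ERK signalling induces and that feed back on it, 14 had a probe set and 13 were tested. In C4-LP 5 of the 13 were 2-fold or more higher than in Pr-LP, against 1.66% of all tested probe sets, and 4 were higher than in C4-HP, against 0.891%, while 0 were lower in C4-LP in either comparison. In Pr-HP 2 of the 13 were 2-fold or more higher than in Pr-LP, against 1.74% of all tested, and 0 were past 2-fold between C4-HP and Pr-HP. The median log2 ratio of the 13 was 0.62 for C4-LP over Pr-LP, -0.50 for C4-HP over C4-LP and 0.04 for C4-HP over Pr-HP. Dusp6, the cytoplasmic phosphatase of ERK, had 182 in Pr-LP, 325 in Pr-HP, 1113 in C4-LP and 247 in C4-HP. With its second tested probe set, 107433_at, C4-LP was also high, with 498 against 244 to 255. Etv5, an ETS transcription factor downstream of ERK, had 101, 379, 581 and 228 in the same order of populations, which gives Pr-HP and C4-LP as the high populations, as in Fos. Dusp4, a nuclear phosphatase of MAP kinases, had 334, 216, 971 and 261, and Pr-HP was there the lowest population. Spry2, a Sprouty inhibitor of receptor tyrosine kinase signalling that was picked after its values were seen, had 228, 465, 603 and 262.

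Of 49 further immediate early genes, 47 had a probe set and 35 were tested. Of the 35, 2 were 2-fold or more higher in Pr-HP than in Pr-LP (1.74% of all tested probe sets), and 2 were higher and 1 lower in C4-LP than in Pr-LP (1.66% and 0.938% of all). At high passage 1 was lower in C4-HP than in C4-LP (0.891% of all) and 2 were lower in C4-HP than in Pr-HP (1.44% of all). As parts of 35 these counts lie above the shares of all tested probe sets, but they rest on 1 or 2 genes each and were not tested. Their median log2 ratios lay between -0.13 and 0.05 in the 4 pairs. Crem, which encodes cAMP-responsive activators and repressors, had 119.8 in Pr-LP, 578 in Pr-HP, 337 in C4-LP and 225 in C4-HP, a 4.82-fold difference between Pr-HP and Pr-LP. Its second tested probe set, 160526_s_at, gave 85.0, 309.8, 159.5 and 129.0. Nr4a2, a nuclear receptor related to Nr4a1, had 82.0, 155, 273 and 233, and there both clone 4 populations lay above both parental ones. Among 20 tested genes upstream of the immediate early genes, such as Braf, Mapk14, Elk1, Srf and Creb1, 1 gene was past 2-fold in any of the 4 pairs, between C4-LP and C4-HP (0.891% of all tested). It was Elk3, an ETS factor, with 268 in C4-LP and 132 in C4-HP, named for this count after its value was seen.

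Of 9 tested heat shock genes, 1 was 2-fold or more higher and 2 were lower in C4-LP than in Pr-LP, against 1.66% and 0.938% of all tested probe sets. Further, 1 was higher in Pr-HP than in Pr-LP (1.74% of all), 1 was higher and 1 lower in C4-HP than in C4-LP (0.39% and 0.891%), and 2 were lower in C4-HP than in Pr-HP (1.44%). Bag3, a cochaperone of Hsp70, had 268 in Pr-LP, 288 in Pr-HP, 874 in C4-LP and 321 in C4-HP, and C4-LP was also the highest population with its 2 other tested probe sets. Of 12 tested genes of the ATF4 stress response, 2 were 2-fold or more higher and 1 lower in Pr-HP than in Pr-LP, against 1.74% and 1.37% of all tested, with a median log2 ratio of 0.48, and 1 was lower in C4-HP than in Pr-HP (1.44% of all). Pr-HP and C4-LP both lay above the other populations in 7 of these 12 genes, 4 of the 13 ERK feedback genes, 8 of the 35 further immediate early genes, 3 of the 20 upstream genes and 0 of the 9 heat shock genes, against 16.3% of all tested probe sets. In limma 0 genes of these 5 lists were called in any of the 3 comparisons.

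**Figure D3:**
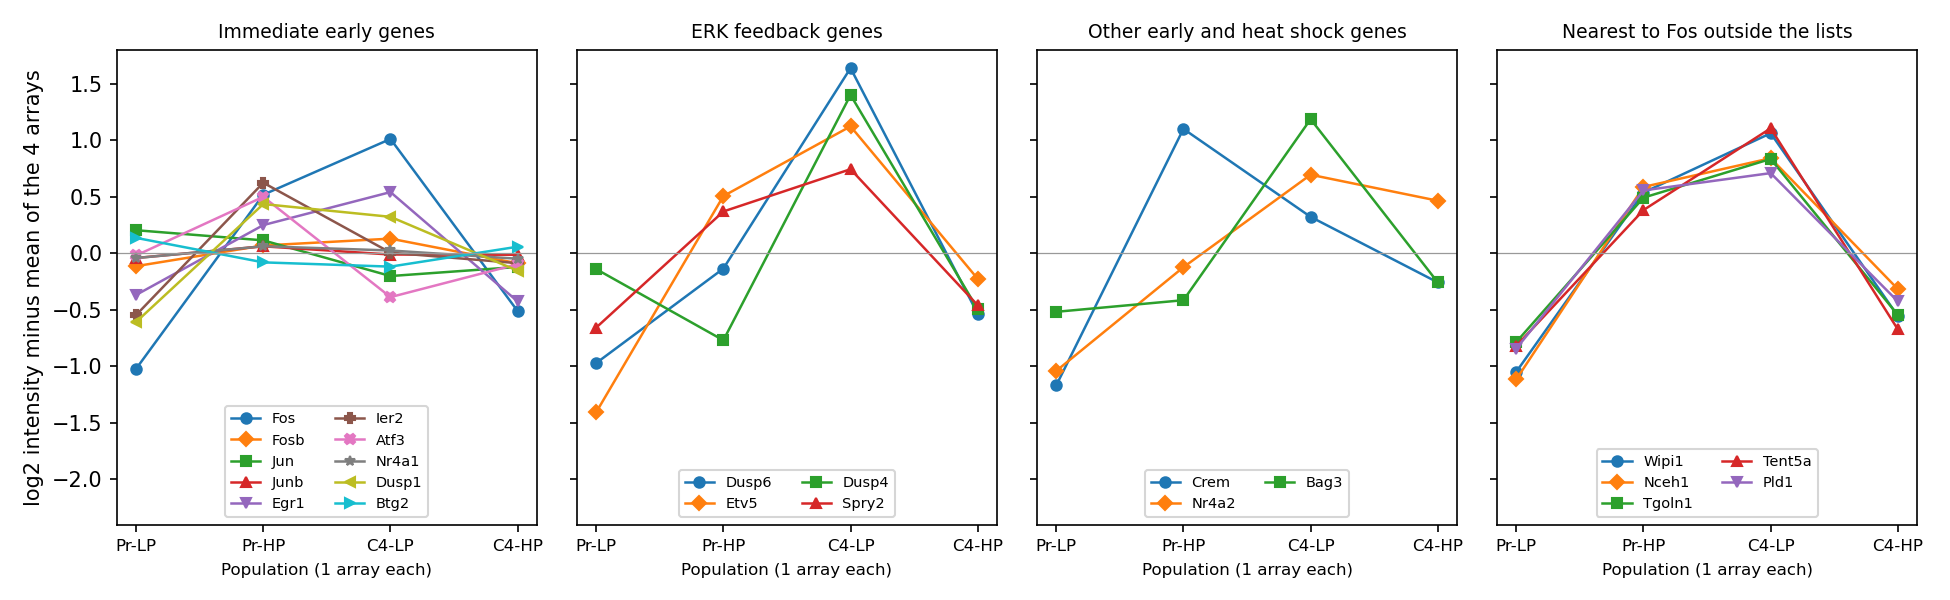
Log2 intensity of the brightest probe set of each gene (for the last panel, the probe set nearest to Fos) minus its mean over the 4 arrays, in the 10 immediate early genes, 4 ERK feedback genes, 3 other early and heat shock genes and the 5 genes nearest to Fos; lines only join the points of a gene. Fos, Egr1, Dusp1, Etv5, Spry2 and the last 5 genes have their high points in Pr-HP and C4-LP, Dusp4 and Bag3 in C4-LP alone.

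Outside the lists, the profiles nearest to Fos were sought among 1381 probe sets with a range over 1 log2 unit, as the distance between log2 values centred over the 4 populations. They were those of Wipi1, an autophagy protein (distance 0.074), Nceh1, a cholesterol ester hydrolase (0.28), Tgoln1, a protein of the trans-Golgi network (0.30), Tent5a, a nucleotidyltransferase (0.31), and Pld1, phospholipase D1 (0.36). Wipi1 had 165 in Pr-LP, 497 in Pr-HP, 714 in C4-LP and 233 in C4-HP with the nearest probe set, and 424, 1778, 1912 and 448 with 105224_at. With the third Wipi1 probe set, 133406_at, the same populations were high but the ratios were smaller, with 374, 548, 723 and 358. The second probe set of Tent5a, 110260_at, did not show the profile, with 249, 264, 294 and 278. In the other Nceh1 probe sets the same populations were high but the ratios were smaller. They were smallest with 106604_at, at 242, 262, 297 and 227. The distance to Fos was 0.48 for Spry2, 0.49 for Etv5, 0.85 for Egr1 and 0.88 for Dusp1. With 4 populations such nearness is found by many probe sets, and 101 of the 1381 were nearer to Fos than Egr1 was.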

How the data were processed

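Signal intensities of probe sets were deposited by the authors on a linear scale, without replicate arrays, for RNA (6 μg) labelled with biotin. GeneChip 5.1 software is named in the methods, and neither the labels nor the methods state how probe sets were summarised and normalized. Depth has no meaning for arrays, and their number limits the precision. Symbols came from the platform annotation, where 29131 of 36701 probe sets carry 1 symbol, 724 several and 6846 none.

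The members and gene lists were chosen with earlier results of these data known. Values under the 20th percentile of a chip (67.3, 58.6 and 29.1 units on chips A, B and C) were raised to it, and probe sets above the 40th percentile on 1 array or more were tested, 23340 in all. limma 3.58.1 under R 4.3.3 (lmFit, eBayes) was run per chip on log2 values, with Benjamini-Hochberg adjustment over the 3 chips, and checked on simulated data. Arrays were grouped by their labels. All members were named, and from the other lists genes past 3-fold between any of the 4 pairs or called in limma, up to 6 a list. Floor, filter, scaling, probe set choice and left-out populations were varied. The additive fit compares passages within each cell population, and replicate numbers pair no arrays, since each group holds 1.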

Additional observations from a re-analysis of the deposited data

Results flagged for a closer look

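Fos changed 2-fold or more in opposite directions with passage in parental and clone 4 cells, with a difference of 3.06 between the log2 ratios of Pr-HP to Pr-LP and of C4-HP to C4-LP. Among the listed genes of the pathway the same held for Etv5, with 3.26, and for Spry2, with 2.23. Each ratio is of 2 arrays and the difference was not tested.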

How the results depend on the processing

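Limma called 19 probe sets between the responder cells and Pr-HP, 32 with the floor at 1.0 unit, 0 with the floor at the 40th percentile (2511 at an unadjusted p under 0.05), 108 without the filter on dim probe sets, and 0 to 3 without 1 of the responder populations (0 without Pr-LP or C4-HP, with 2446 and 1696 at an unadjusted p under 0.05). None of these fits called a member. The additive fits called 0 probe sets under every alternative floor, filter and scaling. At an unadjusted p under 0.05 from limma they had 1054 to 3101 for clone 4 against parental and 841 to 2847 for passage. Leaving out 1 population gave fits of 1 factor with 1 array in a group, which do not check the additive fit. Without Pr-LP, the fit of clone 4 against parental is that of responder cells against Pr-HP. The same holds for the fit of passage without C4-HP. The member past 2-fold between C4-HP and Pr-HP, Fos, was lost with the floor at the 40th percentile (0 of 14), since its lower value is raised there. With that floor the member with opposite passage changes was lost too (0 of 14), and at 1.5-fold 2 of 14 met that rule, against 1.22% of all tested. The mean over all tested probe sets of a gene brought Atf3 between C4-HP and Pr-HP from -0.60 to -0.21 on the log2 scale. Of 160 recomputed log2 ratios of the 10 genes, 146 moved by less than 0.1 and 14 by more, and no ratio past 2-fold changed sign, while the 4 small ratios of Junb did with the mean over its probe sets. Low signal limits Fos, whose values in Pr-LP and C4-HP lay under the 40th percentile. The rules on population order and on opposite passage changes were chosen after seeing the data.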
